A study of Mus musculus with 12 samples.

Results

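The let-7 family comprises miRNAs that are cut from separate hairpins but carry the same seed, the stretch of bases 2 to 8 by which a miRNA pairs with its target mRNAs. The rows of the deposited count files named mmu-let-7a, mmu-let-7b, mmu-let-7c, mmu-let-7d, mmu-let-7e, mmu-let-7f, mmu-let-7g, mmu-let-7i and mmu-miR-98 were taken as the members, by name and without star forms, the strands from the opposite arm of a hairpin. These are 9 of the 469 miRNA names in the files. All 9 were listed in each of the 12 count files, and all 9 were among the 431 miRNAs tested, which had at least 2 counts in total in either region.

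Let-7 was first described in worms as a regulator of developmental timing, and its members rise in many animal tissues as cells stop dividing and differentiate. The precursors of several members are held back in stem cells by LIN28 proteins, which block their processing. In the adult brain the mature family is abundant in neurons. Since the members share a seed, they are thought to repress a largely common group of mRNAs, and the total of the family is of interest beside each member.

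Small RNAs of 15 to 35 nt were sequenced from frontal cortex (FCx) and hippocampus (HP) of male C57BL/6J mice of 8 weeks without treatment. FCx was cortex from a slice at Bregma -1.5 to -3.5, and HP was dissected by an earlier method that the paper cites. Tissue from 3 mice was pooled for each region, and each RNA pool gave 3 libraries. These carry different indexes, tags of 6 nt in the 5′ adaptor that end up next to the first base of the miRNA (UUAGGC for index 3, CAGAUC for index 7 and GGCUAC for index 11). Every library was run in a lane of its own and in a pooled lane, and both runs were summed here, so that n = 3 libraries per region. The spread between libraries of a region is therefore technical and includes the index, while differences between animals were not measured.

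The libraries held 391410 to 1461732 counts on miRNAs in FCx and 3206221 to 4956117 in HP. Levels are in CPM, where 1000000 stands for all miRNA counts of the library. Of the markers of brain tissue, miR-124, miR-9 and miR-128 together reached 241123 to 271724 CPM in FCx and 103071 to 167715 CPM in HP, and none of them was at 0. The 3 olfactory bulb markers miR-200a, miR-200b and miR-429 summed to 1163 to 5394 CPM in FCx against 23.7 to 131 CPM in HP. The 4 choroid plexus markers miR-204, miR-211, miR-34c and miR-449a summed to 49.0 to 94.5 CPM in FCx and 75.0 to 262 CPM in HP. The ranges of blood markers (64.4 to 171 CPM in FCx and 34.3 to 165 CPM in HP), muscle markers (104 to 1079 and 71.0 to 816 CPM) and the liver marker (1.53 to 12.8 and 0.493 to 24.0 CPM) overlapped. The part of other tissue in the differences between FCx and HP was not tested. In bulk tissue, fewer cells that hold a miRNA and less of it per cell cannot be told apart.

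The mature sequences of the 9 members were taken from RefSeq (GRCm38.p6), which lists each of them as the 5p strand. They are shown because the identical seed and the few differences elsewhere set both what the members have in common and how well their reads can be separated. All are 22 nt long, are written 5′ to 3′ and have the seed in capitals:
mmu-let-7a: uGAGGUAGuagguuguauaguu
mmu-let-7b: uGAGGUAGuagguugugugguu
mmu-let-7c: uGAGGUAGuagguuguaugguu
mmu-let-7d: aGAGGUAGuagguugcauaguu
mmu-let-7e: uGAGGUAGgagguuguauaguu
mmu-let-7f: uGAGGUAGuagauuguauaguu
mmu-let-7g: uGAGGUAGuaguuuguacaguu
mmu-let-7i: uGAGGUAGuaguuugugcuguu
mmu-miR-98: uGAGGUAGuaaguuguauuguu

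A single seed was found among the 9 members, and 8 of the 22 positions varied. Counted from the 5′ end and with let-7a first, let-7c differs by A19G, let-7e by U9G and let-7f by G12A. Let-7b carries A17G and A19G, let-7d U1A and U16C, let-7g G12U and U18C, and miR-98 G11A and A19U. Let-7i is the most distant from let-7a, with G12U, A17G, U18C and A19U. Of the 36 pairs of members, 14 differ at no more than 2 positions, which is the number of mismatches the authors allowed in the alignment, and each member is in at least 1 such pair. Reads with sequence differences can therefore have been counted under another member, and the levels of close members are uncertain to that extent. Among the 422 tested miRNAs outside the family, 267 were matched to a RefSeq sequence and 0 of these had the same bases 2 to 8.

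The members arise from 12 hairpins on 7 chromosomes, located here by exact match of the RefSeq hairpins to NCBIM37, the build of the deposited alignments. Let-7d (chr13:48631381-48631483), let-7f-1 (chr13:48633198-48633286) and let-7a-1 (chr13:48633548-48633641) lie together on the minus strand of chromosome 13. On the plus strand of the X chromosome, let-7f-2 (chrX:148346889-148346971) and miR-98 (chrX:148347757-148347864) lie 785 bp apart in an intron of Huwe1, a ubiquitin ligase gene on the same strand. Let-7c-2 (chr15:85537033-85537127, plus strand) and let-7b (chr15:85537749-85537833, plus strand) are separated by 621 bp. Let-7g (chr9:106081171-106081258, plus strand) lies in an intron of Wdr82, and let-7a-2 (chr9:41344799-41344894, plus strand) in an intron of the lincRNA D230004N17Rik. Let-7c-1 (chr16:77599902-77599995, plus strand) lies opposite an intron of the predicted gene Gm11146. No gene other than the miRNA itself is annotated over let-7e (chr17:17967316-17967408, plus strand) or let-7i (chr10:122422696-122422780, minus strand).

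Together the 9 members took a larger part of all miRNA counts in HP than in FCx. In FCx they took 46.6%, 52.5% and 45.9% of the counts of the libraries with index 3, 7 and 11. In HP they took 63.3%, 57.9% and 58.5%. Each HP library was above each FCx library, and the mean share was 48.3% ± 3.62 in FCx and 59.9% ± 2.98 in HP (SD, n = 3 libraries). The share was higher in HP by 16.7, 5.37 and 12.6 percentage points within indexes 3, 7 and 11. The two-sided exact permutation test gave p = 0.1, the smallest value that 3 libraries against 3 allow. The 95% Wilson intervals of single libraries were at most 0.313 percentage points wide, and since the reads carry no molecular identifiers they cover counting error only. A share is taken within a library, so its counterpart is the share of all other miRNAs, which was 51.7% ± 3.62 in FCx and 40.1% ± 2.98 in HP. Of these others, miR-124, miR-9 and miR-128 together had 241123 to 271724 CPM in FCx and 103071 to 167715 CPM in HP. Their part in the difference of the family share was not tested.

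**Figure D1:**
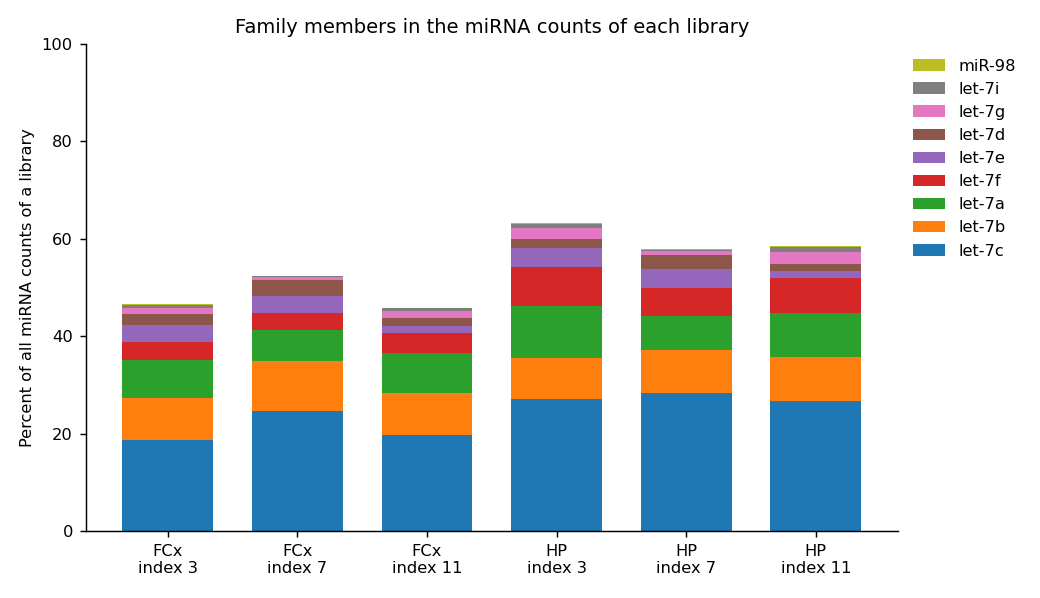
Share of each member in all miRNA counts, in percent, as stacked bars for the 6 libraries (region and index below each bar). The bars reach 45.9% to 52.5% in FCx and 57.9% to 63.3% in HP, and let-7c is the widest segment in all 6.

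The levels of the members spanned more than 2 orders of magnitude, from let-7c to miR-98. Let-7c was the most abundant miRNA of all in both regions, with 211138 ± 31654 CPM in FCx and 274461 ± 9230 CPM in HP (mean ± SD, n = 3 libraries). Its share of the family total was 40.3%, 47.1% and 43.2% in the FCx libraries and 42.9%, 49.2% and 45.7% in the HP libraries. Let-7b and let-7a followed, with 90893 ± 9553 and 74599 ± 10010 CPM in FCx and 87480 ± 2580 and 88826 ± 18617 CPM in HP. Let-7b lay above let-7a in 3 of 3 FCx libraries without overlap, whereas in HP their ranges overlapped. Next were let-7f, let-7e and let-7d, and then let-7g, let-7i and miR-98. The ranges of let-7f and let-7e overlapped in FCx but not in HP, those of let-7e and let-7d overlapped in both regions, and so did those of let-7g and let-7i. Even so, let-7e was above let-7d and let-7g above let-7i in 3 of 3 libraries of each region. Let-7g and let-7d overlapped in HP only, where let-7d was above let-7g in 1 of 3 libraries. MiR-98 was the lowest member, with 695 ± 311 CPM in FCx and 1591 ± 867 CPM in HP, below let-7i in all 6 libraries without overlap. It ranked 60th among all miRNAs in FCx and 36th in HP.

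**Figure D2:**
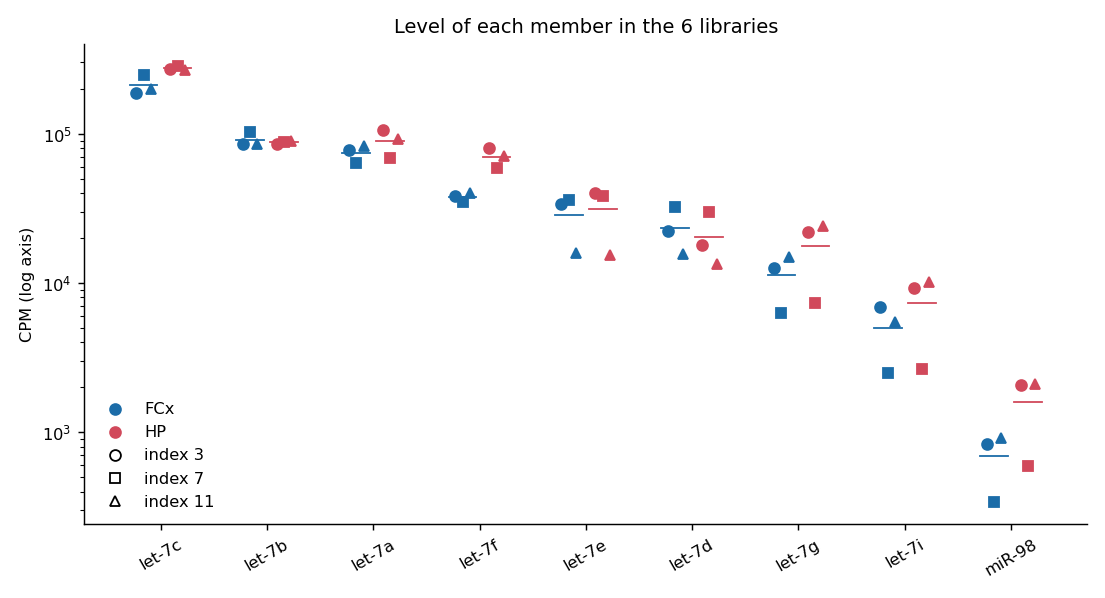
CPM of each member (log axis) in the 6 libraries, with FCx in blue, HP in red, a symbol for each index and a line at the mean of 3 libraries. Let-7c lies between 187892 and 284835 CPM and miR-98 between 339 and 2095 CPM, and the symbols for index 7 sit lowest for let-7g, let-7i and miR-98.

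FCx and HP were compared for each member to find where the regions differ. Without an index term, as in the design of the study, 0 of the 9 members passed the quasi-likelihood test of edgeR at an adjusted p (Benjamini-Hochberg) under 0.05, against 2 of all 431 miRNAs (0.464%). At an unadjusted p under 0.05 there were 1 member and 17 miRNAs in all, and DESeq2 called 0 members and 12 miRNAs. In that fit the log2 fold changes of FCx over HP ran from -1.76 (miR-98) to -0.09 (let-7d), each with an adjusted p of 0.992. In the 12 alternative fits with no block, members had adjusted p values from 0.815 to 0.998. The median of the members was -0.74 and that of all 431 miRNAs -0.37 on the TMM scale, and 7 of 9 members lay below the median of all. With library totals in place of TMM the medians were -0.38 and 0.03, so the choice of scaling moves the median of all miRNAs by about 0.40. Let-7b and let-7d were below 0 on the TMM scale and above 0 with library totals, and their direction is thus not given by these data.

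The index was also fitted as a block, which compares the FCx and the HP library of the same index. Then 4 of 9 members were called (adjusted p under 0.05), all higher in HP, against 55 of 431 miRNAs called higher in HP (12.8%). These were let-7f, let-7g, let-7i and miR-98. DESeq2 with the same block called let-7f and miR-98, beside 41 of 431 miRNAs. With the block and library totals, let-7c, let-7f, let-7g and miR-98 were called, beside 56 of 431 miRNAs. The median of the members with the block was -0.81, beside -0.38 for all miRNAs. Without the libraries of index 3, edgeR called 0 of 9 members, with 1 at an unadjusted p under 0.05, beside 30 of 417 miRNAs tested. Without index 7 it was 6 (let-7a, let-7c, let-7f, let-7g, let-7i and miR-98), beside 41 of 406 miRNAs. Without index 11 it was only miR-98, beside 51 of 419. The counts over all miRNAs in these fits, in DESeq2 and with library totals hold both directions.

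Let-7f, encoded on chromosomes 13 and X, was the member that separated the regions most clearly by level. Its values were 38313, 35030 and 39862 CPM in FCx (indexes 3, 7 and 11) and 79894, 58506 and 70868 CPM in HP. The lowest HP library stood above the highest FCx library, and HP was 2.09-fold, 1.67-fold and 1.78-fold higher within the indexes. The log2 fold change was -1.31 with a standard error of 0.57 without the block (unadjusted p = 0.0421 in edgeR) and -1.30 with 0.34 with it (edgeR adjusted p = 0.00176). Relative to the median of all miRNAs the blocked change was -0.92. It was called in 6 of the 8 blocked fits, with adjusted p from 1.1e-05 to 0.352. Of the tested miRNAs, 15 of 431 (3.48%) had every HP library above every FCx library, and let-7f and let-7c were the members among them.

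MiR-98 gave the largest ratio between the regions but also a wide spread between indexes. It was counted at 835, 339 and 910 CPM in FCx and at 2088, 590 and 2095 CPM in HP. The index 7 library was lowest in both regions, and the HP library of index 7 lay below 2 of the 3 FCx libraries, so the groups overlapped. Within each index HP was higher, by 2.50-fold, 1.74-fold and 2.30-fold. The blocked log2 fold change was -1.53 with a standard error of 0.30 (edgeR adjusted p = 8.15e-06), and -1.15 relative to the median of all. MiR-98 was called in 7 of the 8 blocked fits, with adjusted p up to 0.079. In FCx it rested on 327 to 594 counts per library, the fewest of any member. Genome alignments within 3 bases of its 5′ end came to 70.9% to 92.7% of its counts over the 6 libraries. They were fewest with index 7, at 70.9% in FCx and 75.4% in HP, and why was not tested.

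Let-7g and let-7i, which differ from each other at 2 positions, were both lowest with index 7. Let-7g stood at 12626, 6333 and 14928 CPM in FCx and at 22024, 7313 and 23980 CPM in HP. Let-7i stood at 6867, 2514 and 5504 CPM in FCx and at 9231, 2664 and 10137 CPM in HP. The index 7 libraries were nearly equal in the regions, with HP higher by 1.15-fold for let-7g and 1.06-fold for let-7i. At index 3 the HP library was higher by 1.74-fold and 1.34-fold, and at index 11 by 1.61-fold and 1.84-fold. With the block the log2 fold changes were -0.99 ± 0.32 for let-7g and -0.89 ± 0.31 for let-7i (standard error, edgeR adjusted p = 0.0144 and 0.0267). With library totals the adjusted p was 0.0498 and 0.225, and let-7i was no longer called.

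The most abundant member, let-7c, measured 187892, 247188 and 198333 CPM in FCx and 271387, 284835 and 267159 CPM in HP. The groups did not overlap, and HP was higher by 1.44-fold, 1.15-fold and 1.35-fold within the indexes. Its adjusted p with the block was 0.101 with TMM and 0.0382 with library totals in edgeR. Let-7a was at 77959, 63341 and 82497 CPM in FCx and at 105829, 68934 and 91717 CPM in HP, and its ranges overlapped. Within indexes it was 1.36-fold, 1.09-fold and 1.11-fold higher in HP, with a blocked adjusted p of 0.183 in edgeR. In all, 6 of 9 members had a higher CPM in HP within all 3 indexes (let-7a, let-7c, let-7f, let-7g, let-7i and miR-98), beside 80 of 431 miRNAs (18.6%).

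Let-7b, let-7d and let-7e did not separate the regions. Let-7b was counted at 85353, 101924 and 85401 CPM in FCx and at 84756, 87796 and 89887 CPM in HP. Let-7e was counted at 34064, 35979 and 15773 CPM in FCx and at 39868, 38111 and 15498 CPM in HP. For let-7d, FCx had 22217, 32299 and 15638 CPM and HP 18016, 29925 and 13503 CPM, so that FCx was higher within each index, by 0.30, 0.11 and 0.21 on the log2 scale. The ranges of all 3 members overlapped, and their adjusted p values with the block were 0.537, 0.745 and 0.293 for let-7b, let-7d and let-7e in edgeR.

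**Figure D3:**
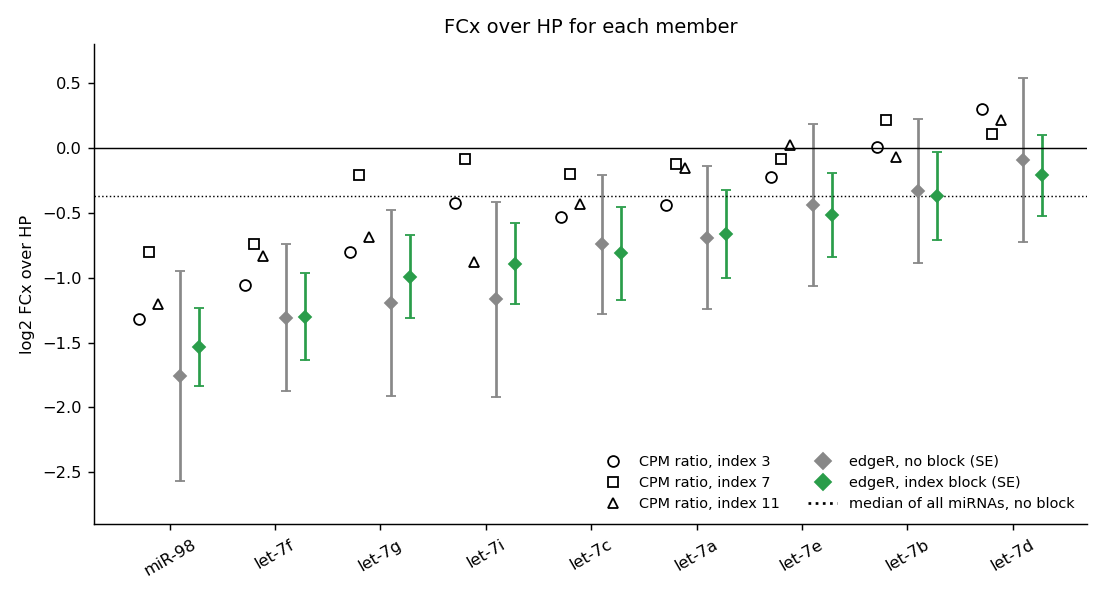
Log2 ratio of FCx over HP for each member, where open symbols are CPM ratios within an index and diamonds are edgeR estimates on the TMM scale with their standard errors, without a block (grey) and with the index as a block (green). The dotted line is the median of 431 miRNAs in the fit without a block, -0.37; miR-98 and let-7f lie lowest, and let-7d has its 3 open symbols above 0.

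The composition of the family does not depend on the scaling between libraries, since each member is set against the family total of the same library. By this measure HP held a larger part of let-7f and a smaller part of let-7b. In FCx let-7f made up 8.22%, 6.67% and 8.69% of the family, and in HP 12.6%, 10.1% and 12.1%. The means were 7.86% ± 1.05 and 11.6% ± 1.33 (SD, n = 3 libraries), and the groups did not overlap. Let-7b made up 18.3%, 19.4% and 18.6% in the FCx libraries, while the HP libraries had 13.4%, 15.2% and 15.4%, with means of 18.8% ± 0.571 and 14.6% ± 1.09. It did not overlap either and was lower in HP within each index. The CPM of let-7b did overlap between the regions (above), and a share also falls where other members rise. For both members the two-sided exact permutation test gave p = 0.1, the smallest possible here, without adjustment for the 9 shares tested. For each let-7b count there were 0.420 ± 0.0665 let-7f counts in FCx and 0.799 ± 0.138 in HP.

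The other 7 members had overlapping shares. That of let-7c was 43.5% ± 3.40 in FCx and 45.9% ± 3.18 in HP, and that of let-7a was 15.6% ± 3.12 and 14.8% ± 2.53. Within all 3 indexes the shares of let-7c, let-7f, let-7g and miR-98 were higher in HP and those of let-7a, let-7b, let-7d and let-7e lower, while let-7i was higher in HP at 1 of 3. For miR-98 the mean share in FCx was 0.147% ± 0.0724, and in HP it was 0.263% ± 0.140, with an exact permutation p of 0.3. Let-7f and miR-98 share the hairpin cluster in Huwe1. Their ratio was 0.0218, 0.00967 and 0.0228 miR-98 counts per let-7f count in FCx and 0.0261, 0.0101 and 0.0296 in HP.

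The index was examined because each occurs once per region, and the libraries of a region come from the same RNA. With the region in the model, edgeR called 264 of 431 miRNAs different between the indexes (61.3%), and 5 of the 9 members. These were miR-98 (adjusted p = 3.69e-05), let-7i (0.000228), let-7g (0.00075), let-7d (0.0194) and let-7e (0.0308). A share of 5 in 9 lies near that of all miRNAs. MiR-98 was called in each of the 12 alternatives, with adjusted p of at most 0.00799, whereas those of let-7i, let-7g, let-7d and let-7e reached 0.0633, 0.0964, 0.321 and 0.608. Let-7d and let-7e were not called with no filter or with at least 10 counts in every library. The count of members depended on single libraries, with 8 called without the FCx library of index 7, 9 without the HP library of index 7, and 3 (let-7g, let-7i and miR-98) without the FCx library of index 3 or 11 or the HP library of index 11. Of all miRNAs tested, 49.1%, 50.8%, 55.3%, 59.2% and 58.2% were called in these 5 fits, in the same order.

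The direction fell into groups. Let-7g, let-7i and miR-98 were lowest with index 7 in both regions, and index 3 gave 1.99-fold, 2.73-fold and 2.47-fold higher levels in FCx and 3.01-fold, 3.47-fold and 3.54-fold in HP. Let-7d and let-7e were lowest with index 11, where index 7 gave 2.07-fold and 2.28-fold higher levels in FCx and 2.22-fold and 2.46-fold in HP. Let-7a and let-7f were lowest with index 7 as well, but ranged over at most 1.54-fold. Let-7b and let-7c stayed within 1.32-fold in FCx and 1.07-fold in HP. In all, 8 of 9 members had the same lowest index in FCx and HP (all but let-7c), but only 4 of 9 had the same highest index. These counts were not taken over all miRNAs. The first 8 bases, which follow the index in the ligated molecule, are the same in all members except let-7d. Their part in the index pattern was not tested.

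**Figure D4:**
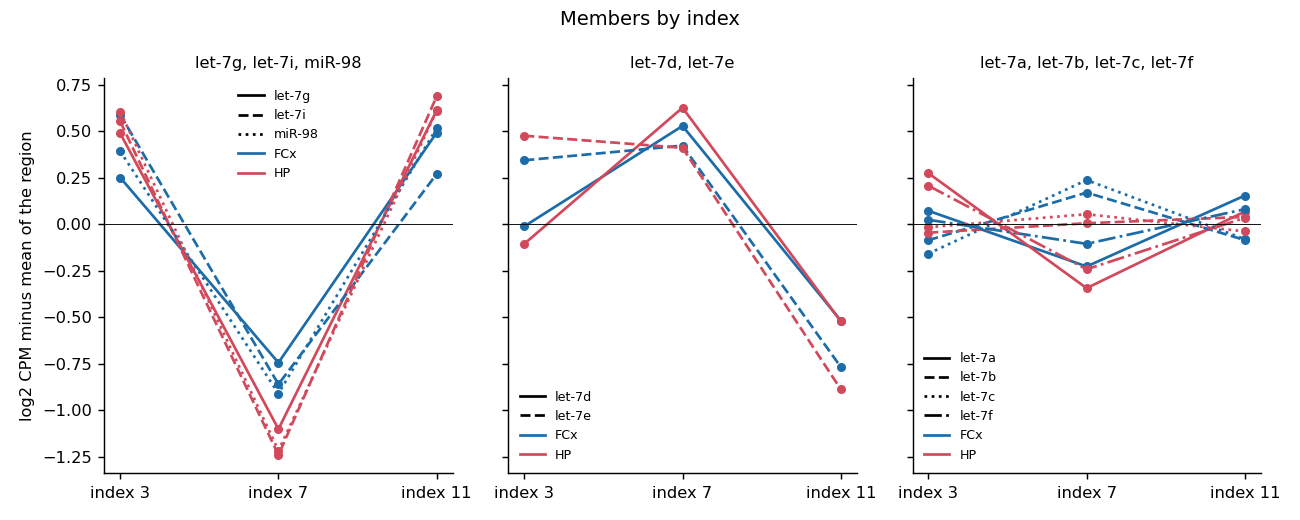
Log2 CPM of each member with the mean of its region subtracted, by index, for let-7g, let-7i and miR-98 (left), let-7d and let-7e (middle) and the other 4 members (right), with FCx in blue and HP in red. The left panel dips at index 7 in both regions and the middle panel at index 11, while the right panel stays close to 0.

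The family total moved less with the index than the median member. The highest library was 1.14-fold above the lowest in FCx and 1.09-fold in HP, against a median of 2.07-fold and 2.22-fold over the 9 members. Let-7f in FCx (1.14-fold) and let-7b and let-7c in HP (1.06-fold and 1.07-fold) ranged as little as the total. Among all 139 miRNAs that averaged 100 CPM or more, the median range was 4.32-fold in FCx and 3.85-fold in HP. The total sums members that were lowest with different indexes, with let-7c as its largest part. Since it takes 45.9% to 63.3% of the counts, it also cannot range as far as a scarce miRNA. Its smaller range was thus largely set in advance and is no finding about the family. The rerun of a library in the pooled lane differed less from the lane of its own, by a median of 0.13 on the log2 scale over 54 pairs of member and library and by 0.54 at most, for let-7e.

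Star forms were scarce, as the strand that is mostly discarded, and 7 were listed. They added at most 0.256% to the family counts. Let-7d* and let-7b* are shown since they held most of the star counts and behaved differently. Both come from the 3′ arm, and bases 2 to 8 are in capitals:
mmu-let-7d*: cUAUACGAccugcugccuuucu
mmu-let-7b*: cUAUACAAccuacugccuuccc

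Let-7d* was higher in FCx, whereas the family total was higher in HP. It had 57, 180 and 92 counts in FCx and 44, 102 and 61 in HP, or 146, 123 and 141 CPM against 13.7, 20.6 and 15.0 CPM. The groups did not overlap, and let-7d* was not called between the indexes (edgeR adjusted p = 0.356). The log2 fold change was 2.65 with a standard error of 0.80 in edgeR (adjusted p = 0.3) and 2.65 with 0.30 with the block (adjusted p = 4.91e-16). In the alternative fits with no block the adjusted p ran from 0.000521 (DESeq2) to 0.997, and over the 8 blocked fits it was at most 0.000825. With the block in edgeR, 22 of 431 miRNAs were called higher in FCx, and let-7d* was the 1 star form called of 7 tested. Let-7d itself, from the other arm of the same hairpin, was not called with the block (above). For each 1000000 let-7d counts there were 6555, 3813 and 9017 let-7d* counts in FCx and 762, 688 and 1114 in HP. At the let-7d hairpin 522 genome alignments began within 3 bases of the annotated start of this arm, beside 536 counts. The olfactory bulb markers were higher in the FCx libraries as well (above), and their part in the let-7d* difference was not tested.

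Let-7b* differed strongly between the indexes. Its level was 889, 51.3 and 18.4 CPM in FCx and 256, 42.2 and 12.1 CPM in HP (edgeR adjusted p = 1.7e-31 between indexes). The regions overlapped, but within each index FCx was higher, by 1.80, 0.28 and 0.61 on the log2 scale. With the block the adjusted p in edgeR was 0.191 with TMM and 0.0382 with library totals, and it ran from 0.0185 to 0.853 over the 8 blocked fits. At the let-7b hairpin 7 genome alignments began within 3 bases of the annotated start of the let-7b* arm, against 1514 counts. A further 215 alignments of 17 nt on that hairpin began at base 7 of let-7b, 213 of them with index 3. The shared row of let-7a* and let-7c-2* was also highest with index 3, with 153, 6.16 and 1.53 CPM in FCx and 76.1, 3.83 and 0.247 CPM in HP. The rows of let-7c-1*, let-7f*, let-7g* and let-7i* held 5, 19, 6 and 10 counts in all.

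**Figure D5:**
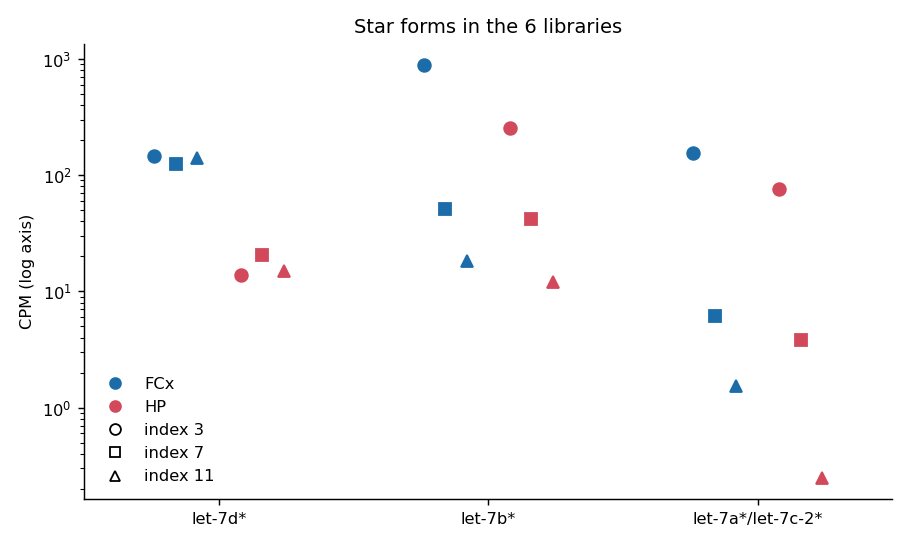
CPM (log axis) of let-7d*, let-7b* and the shared row of let-7a* and let-7c-2* in the 6 libraries, with FCx in blue, HP in red and a symbol for each index. Let-7d* lies at 123 to 146 CPM in FCx and 13.7 to 20.6 CPM in HP, while the other rows spread by index in both regions.

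Several let-7 hairpins lie beside hairpins of the miR-99/100 and miR-125 families, and 5 such partners were examined. EdgeR without the block called 0 of them between the regions, with 0 at an unadjusted p under 0.05 and 0 called by DESeq2 among those with an adjusted p. With it, miR-99a (adjusted p = 0.00175 in edgeR) and miR-100 (0.037) were called higher in HP, beside 12.8% of all miRNAs, and 0 were called higher in FCx. MiR-99a, the neighbour of let-7c-1, was at 2067, 2697 and 17696 CPM in FCx and at 3368, 4684 and 32655 CPM in HP, lowest with index 3. Its partner let-7c showed no such range, and 4 of the 5 partners were called between indexes, beside 61.3% of all miRNAs. MiR-125b-5p, with hairpins beside let-7a-2 and let-7c-1, was at 27061, 3404 and 8732 CPM in FCx and at 26711, 3405 and 6233 CPM in HP. Of the 130 miRNAs outside the family that averaged 100 CPM or more and had counts in all libraries, miR-27b (Pearson r = 0.79 of log2 CPM), miR-379 (0.69) and miR-7a (0.64) were most like the family total. These coefficients are the 3 highest of the 130, picked as such, and no test was made of them. They describe 6 libraries from 2 RNA pools that share 3 indexes.

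The genome alignments show where the reads of the members began. At the 12 hairpins 8132883 alignments began within 3 bases of the annotated 5′ end of a member, and 99.5% of them at that very base. A start 1 base later made up 0.294% and a start 1 base earlier 0.183%, and let-7g had the highest rate of the latter, 1.01% of its own alignments. Alignments of 22 nt were 95.9% of the total and of 17 nt 3.04%. At miR-128, annotated with 21 nt, 98.0% of the alignments at the annotated start were also of 22 nt, so the alignment length was not read as the length of the miRNA. Those of 17 nt were most frequent for let-7a-1 (6.11%) and let-7b (5.88%) and rare for let-7g (0.122%). Let-7a and let-7c are identical over the first 17 bases, the only such pair, so that a read with only these bases cannot be assigned to either. How many reads were that short is not given by the alignment lengths. Of the 36 pairs, 28 differ at no more than 2 of these bases, the mismatches allowed. Short reads with sequence differences are therefore uncertain for other members too.

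Let-7a, let-7c and let-7f each have 2 hairpins with the same mature sequence. Let-7c alignments were divided evenly, with 49.9% to 50.3% on let-7c-2 in the 6 libraries. Let-7a alignments were placed on let-7a-2 for 72.2% to 72.9% and let-7f alignments on let-7f-2 for 72.7% to 73.4%. The files give 1 position per read, so these shares do not measure the output of the hairpins. The shares of let-7f and let-7b in the family were separate between the regions when taken from the genome alignments, an alternative chosen after seeing the data. These alignments come from the reads of the same 6 libraries and are not a second measurement. Let-7f made up 8.12% ± 1.05 in FCx and 12.0% ± 1.35 in HP, and let-7b 18.9% ± 0.679 and 14.9% ± 1.11 (SD, n = 3 libraries). The share of miR-98 was 0.137% ± 0.0774 and 0.243% ± 0.142, with overlap. Per library, the alignments at the 5′ ends were 70.9% to 92.7% of the counts for miR-98. They were 83.2% to 90.7% for let-7e, 89.0% to 93.5% for let-7a and 95.3% to 99.0% for the remaining members.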

How the data were processed

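Per the methods and the labels, the authors kept indexed reads, trimmed index and adaptor, removed unwanted reads and those shorter than 14 nt, and used Bowtie with 2 mismatches allowed to align the others to mature miRNAs of miRBase 11 and to NCBIM37. In 12 lane files the authors deposited, without normalization, the count of reads on each mature miRNA. The alignment files hold, as deposited, the start, end and strand of 1 position per read, and a constant score that was not used. No column of the files was left out as belonging to other samples.

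Counts of both runs of a library were summed. FCx and HP were compared with edgeR 4.0.16 in R 4.3.3 (quasi-likelihood test, TMM, Benjamini-Hochberg over 431 miRNAs, each with 2 counts or more in FCx or in HP), which gives every adjusted p unless DESeq2 1.42.0 is named. The index was tested with both of its coefficients, with the region in the model. Same-index libraries of FCx and HP correlated with r of 0.772, 0.854 and 0.836 across miRNAs (log2 CPM centred within a region, prior count of 2), and others with -0.597 to -0.245. Centring over the 3 libraries of a region makes the latter negative on average once the former are positive, so they add no support. By the same-index values the index pairs the libraries. The fit with the replicate number as a block, which is the index, is given where it changes a call. Shares were compared with a two-sided exact permutation test. Depth ranged from 391410 to 4956117 counts, at which a count of 0 allows 7.66 to 0.605 CPM (3 counts). The tests were also run on simulated counts with larger changes than the members showed in the edgeR fits above. This trial thus does not show how the tests perform at changes of that size. Sequences came from RefSeq, hairpins were matched with pysam 0.24.0 and neighbouring genes are those of GENCODE vM1. Python 3.11.15, pandas 2.3.3, numpy 2.4.6, scipy 1.17.1 and matplotlib 3.10.9 were used. The miRNAs named are the 9 members, the star forms of their hairpins, 5 cluster partners, miRNAs with the same seed and the 3 most like the family total. Members and lists were chosen with earlier results of these data known.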

Additional observations from a re-analysis of the deposited data

Results flagged for a closer look

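Let-7b was higher in FCx with index 7 but not with index 11, where only the pooled lane was clearly below 0. With index 7 the log2 ratio of FCx over HP was 0.19 in the lane of its own and 0.26 in the pooled lane, and with index 11 it was -0.0016 and -0.31, so the mean ratios differ by 0.39. Each index has 1 library per region, and this difference was not tested.

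A total of 109 alignments lay on the strand opposite the let-7 and miR-98 hairpins. Of these, 70 were at let-7b, 26 at let-7a-1 and 11 at let-7c-2, and 79 came from libraries with index 3.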

How the results depend on the processing

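The call of the members between FCx and HP turned on the replicate block. Without it, edgeR and DESeq2 called 0 of 9 members in each alternative, with 0 or 1 at an unadjusted p under 0.05. With it, 4 were called with TMM and 4 with library totals, 5 with the individual lanes, 3 with the pooled lanes, 2 with DESeq2, and 6 and 1 when index 7 or 11 was left out (0 without index 3). Of all miRNAs, 2 were called, 12 with DESeq2, 8 with no filter, 0 with at least 10 counts in every library (173 tested, 6 at an unadjusted p under 0.05) and 0 in the pooled lanes (18 unadjusted). Leaving out 1 library gave 0 to 7, with 0 without the HP library of index 3 (14 unadjusted) or 11 (17 unadjusted) and 7 without the FCx library of index 11 or the HP library of index 7. With the block it was 77, or 56 with library totals, 41 with DESeq2, 68 of 416 in individual lanes and 46 of 388 in pooled lanes. Without index 3, 7 and 11 it was 30 of 417, 41 of 406 and 51 of 419. Between indexes, 5 members were called, 3 with no filter, 3 with at least 10 counts, 2 in the pooled lanes and 3 to 9 without 1 library. Of all miRNAs it was 264, and 139 of 173 with at least 10 counts. The cause was not tested.

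The log2 fold change kept its sign over 20 alternatives for let-7a, let-7c, let-7f, let-7g, let-7i and miR-98. For let-7b it became 0.055 with library totals, 0.051 with these and the block and 0.12 with the block without index 11, and without 1 library it ran from -0.30 to 0.22. For let-7d it became 0.15 (DESeq2), 0.062 (DESeq2 with the block), 0.061 (at least 10 counts), 0.19 (library totals), 0.11 (no filter), 0.21 (block without index 11) and 0.21 (block with library totals), and -0.31 to 0.27 without 1 library. For let-7e it was -0.54 to 0.026 without 1 library. The higher family share in HP kept its direction in all alternatives. The difference of HP minus FCx in the share of let-7a became 0.320 percentage points with the counts of a region summed, and without 1 library it ran from -2.58 to 0.609 for let-7a, -1.90 to 0.575 for let-7e, -0.0335 to 1.40 for let-7g and -0.119 to 0.545 for let-7i.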
